A study of Homo sapiens with 12 samples.

Results

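The 31 genes described here encode the transcription factor NRF2 (NFE2L2), its repressor KEAP1, its binding partner MAFG and 28 enzymes, carriers and other proteins that are reported targets of NRF2. They were chosen by name, with earlier results of these data known, and all 31 were present among the 58735 genes of the count table. HK-2 is an immortalized line of human renal proximal tubular epithelial cells. Its RNA was sequenced in 12 samples, with 3 samples in each of 4 groups. The cells were grown in DMEM/F12 with serum and antibiotics. The control cells received water (H2O), and the other groups were exposed for 48 h to 75 mg I/mL iohexol, an iodinated contrast medium, to 5 μM cisplatin, a platinum compound given against tumors, or to 4 mM vancomycin, a glycopeptide antibiotic. The labels give no other difference between the groups, and they do not say whether the 3 samples of a group were separate cultures, so that the p-values measure the spread between these samples. All samples came from 1 immortalized cell line without the other cells of the kidney.

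The total count per sample lay between 14057282 and 18177109, and the vancomycin samples had the largest totals. Levels are given as CPM, counts scaled by the library total and its TMM factor. CPM is a share of the sequenced RNA and not a number of copies per cell. A change in the RNA of a gene and a change in the rest of the RNA cannot be told apart by it. A floor of 3 counts, which covers counting error only, stood for 0.165 to 0.213 CPM without the TMM factor. Of 12 markers of the proximal tubule, 4 (PAX8, GGT1 and CDH6 among them) exceeded a mean of 10 CPM in the control samples, while the apical receptor LRP2, the transporter SLC22A6 and the regulator HNF4A were at or under the floor in all 12 samples. The 5 leukocyte markers summed to at most 0.473 CPM and the 4 endothelial markers to at most 4.21 CPM in a sample. The 6 fibroblast markers summed to 114 to 128 CPM in the control samples and to 239.8 to 276 CPM with vancomycin. Their sums were 106 to 116 CPM with iohexol and 104 to 108 CPM with cisplatin. COL1A2, COL3A1 and PDGFRA were near 0. All 3 that were tested (LUM, DCN and COL1A1) rose with vancomycin, beside 29.0% of all genes. With cisplatin LUM and DCN fell and 1 rose, beside 30.6% and 29.2% of all genes. With iohexol DCN fell and 0 rose, beside 9.77% and 11.2%. The part of these genes and of the larger totals in the values below was not tested.

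NRF2 is a transcription factor of the cap'n'collar family. In unstressed cells the adaptor KEAP1 binds NRF2 and hands it to a CUL3 ubiquitin ligase, so that the protein is degraded quickly. Electrophiles and oxidants modify cysteines of KEAP1, newly made NRF2 then reaches the nucleus, pairs with a small MAF protein and binds antioxidant response elements near genes for glutathione and thioredoxin use, NADPH supply, the reduction of quinones and carbonyls, and the handling of heme and iron. This control acts largely on the protein, which was not measured here, and in the proximal tubule the pathway is known for its response to toxic drugs.

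The core letters of the antioxidant response element, TGACNNNGC on either strand (GCNNNGTCA on the other), were searched in RefSeq promoters of GRCh38.p14, from 250 bases before to 50 bases after each annotated start. The table held promoters for 25 of the 31 genes, and for GSR, PRDX1, AKR1B10, CBR3, SOD1 and TRIM16L it held none. The letters occurred at 1 or more starts of 11 of these 25 genes (44.0%), and of 4384 of all 27305 genes (16.1%). Counted by promoter, 12 of 31 (38.7%) held them, beside 4687 of all 35116 (13.3%). In ME1 and PIR they overlapped the related AP-1 letters (TGACTCA or TGAGTCA), which occurred in 4.95% of all promoters and in 3 of the 31. A match is a run of letters and not a shown binding site. The sites below are given because they place the same letters before genes that behaved differently. The match before GCLM and 1 of the 2 before KEAP1 were the same 9 bases, and TXNRD1 had copies before 2 of its starts. EPHX1 rose with every drug, and FECH was called with none. The other KEAP1 match (from -54 to -46) is not printed. Further matches of TXNRD1 (from -8 to 1) and ME1 (from 12 to 20), and those of GPX2, PGD and PIR, are also left out. Each sequence is read 5′ to 3′ on the strand of its gene, with the motif in capitals, and positions count from the annotated start, whose first base is 1.
GCLM (chr1:93909446-93909474, minus strand, from -34 to -26, over an annotated exon of the gene): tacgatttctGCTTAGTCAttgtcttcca
KEAP1 (chr19:10502784-10502812, minus strand, from -31 to -23, over an annotated exon of the gene): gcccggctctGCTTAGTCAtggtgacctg
TXNRD1, upstream start (chr12:104215670-104215698, plus strand, from -99 to -91, outside the gene): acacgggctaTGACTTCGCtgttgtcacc
TXNRD1, downstream start (chr12:104286920-104286948, plus strand, from -102 to -94, over an annotated exon of the gene): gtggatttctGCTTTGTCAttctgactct
ME1 (chr6:83431170-83431198, minus strand, from -137 to -129, outside the gene): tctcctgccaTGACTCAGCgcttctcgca
CBR1 (chr21:36069855-36069883, plus strand, from -159 to -151, outside the gene): tgcgggttctGCAAAGTCAggctagctgg
EPHX1 (chr1:225825266-225825294, plus strand, from -78 to -70, in an intron of the gene): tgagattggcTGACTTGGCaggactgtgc
ABCB6 (chr2:219219092-219219120, minus strand, from -152 to -144, outside the gene): cctgggcacgTGACCAAGCcggctctgct
FECH (chr18:57586722-57586750, minus strand, from -38 to -30, over an annotated exon of the gene): ccgggagggcGCGAGGTCAgggggctggg

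A separate comparison of each drug with the controls was made by edgeR's quasi-likelihood test over all genes that passed a filter on low counts, to see which of the 31 genes each drug moved. A gene is said to have risen or fallen where its Benjamini-Hochberg adjusted p was under 0.05, and it is called a DEG where its log2 fold change was also above 1 or below -1. The 3 comparisons share the 3 control samples. A value after ± is the standard error (SE) of a log2 fold change, or the SD over 3 samples of a level. With vancomycin 29 of the 31 genes were tested, and 27 rose while CAT and FECH did not pass. No tested gene of the 31 fell by edgeR, 0 were lower at an unadjusted p under 0.05, and 0 were lower by DESeq2 or limma-voom. Over all 15819 genes tested 29.0% rose and 28.8% fell with vancomycin. DEGs up were 16 of the 29, beside 10.8% of all genes, and 27 had vancomycin samples that all lay above all control samples, beside 33.9% of all genes. The median log2 fold change over the 29 was 1.05, where that over all genes was -0.0084. AKR1C1 and AKR1B10 passed the filter through their vancomycin samples alone.

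The other drugs moved fewer of these genes and in both directions. With iohexol 6 of 28 tested genes rose and 4 fell, beside 11.2% and 9.77% of all 15657 genes. EPHX1 and AKR1C1 were the DEGs, both up, where 4.02% of all genes were DEGs up. The median log2 fold change was 0.11, and 0.012 over all genes. AKR1C1 passed the filter through its iohexol samples. With cisplatin 8 of 27 tested genes rose and 10 fell, shares close to the 29.2% and 30.6% of all 15876 genes. OSGIN1 was the DEG up and AKR1C3 the DEG down, where DEGs were 7.62% and 8.72% of all genes. The median log2 fold change was -0.09, and 0.0074 over all genes, and SRXN1 passed the filter through its cisplatin samples. Among the 27 genes tested with all 3 drugs, the highest log2 fold change was that of vancomycin in 24, of iohexol in 2 and of cisplatin in 1. The same count was not made over all genes, so these numbers only describe the 27.

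**Figure D1:**
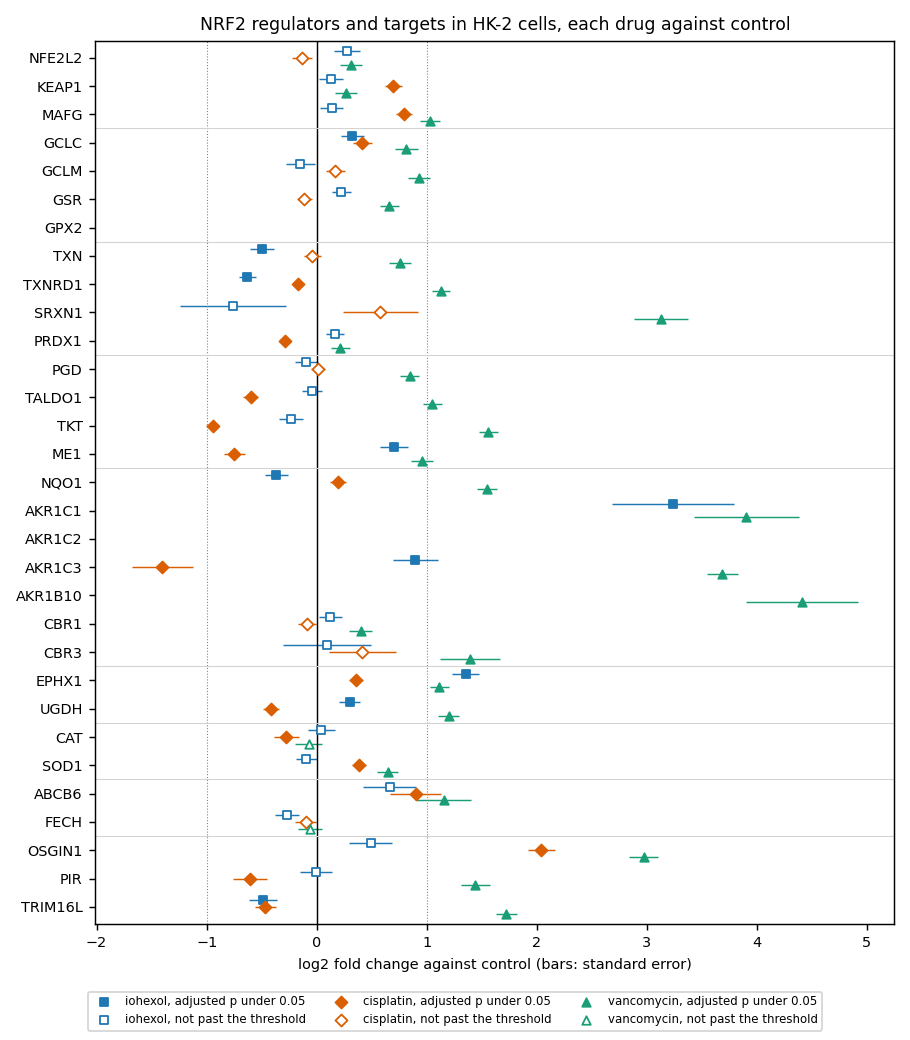
Log2 fold change of each gene against the control group (x axis), with the standard error as a bar, for iohexol (squares), cisplatin (diamonds) and vancomycin (triangles), the genes being grouped by role; filled symbols had an adjusted p under 0.05 and dotted lines mark 1 and -1. The vancomycin symbols lie right of 0 for 27 of the 29 genes tested, while those of cisplatin and iohexol lie on both sides.

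By level, the peroxiredoxin PRDX1 and thioredoxin stood first in the control samples. Per kilobase of exon, PRDX1 was at 405 ± 23.4 CPM, TXN at 279.7 ± 34.5, TXNRD1 at 93.3 ± 3.38, TKT at 56.9 ± 4.20 and SOD1 at 56.7 ± 4.13. TKT and SOD1 overlapped in this order, as did the run from PGD over EPHX1 and UGDH to NQO1 (28.8 ± 2.48) and the run from GSR over KEAP1, ME1, NFE2L2 and GCLM to CBR1 (15.4 ± 0.549). At the low end OSGIN1 (1.58 ± 0.139) overlapped CBR3, AKR1C3 overlapped SRXN1, and SRXN1 overlapped ABCB6 (0.433 ± 0.104). GPX2, AKR1B10, AKR1C1 and AKR1C2 were last, at 0.139 CPM per kilobase or less. With vancomycin, per kilobase, TKT was at 173 ± 5.60 CPM and AKR1C3 at 10.3 ± 1.12 CPM, the latter from 0.775 ± 0.0228 CPM in the control samples.

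**Figure D2:**
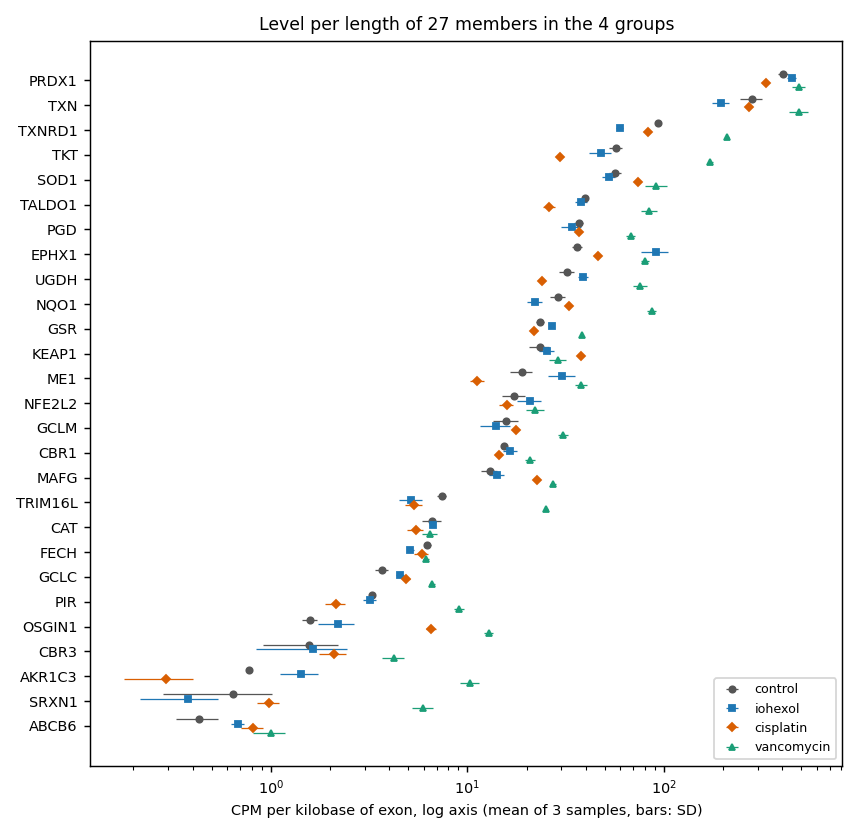
Mean CPM per kilobase of exon (x axis, log scale) of 27 genes in the control (circles), iohexol (squares), cisplatin (diamonds) and vancomycin (triangles) groups, with the SD over 3 samples as a bar and the genes ordered by their control level; GPX2, AKR1B10, AKR1C1 and AKR1C2, with few counts, are left out. The vancomycin symbols lie to the right of the control symbols at the top and at the bottom of the order, apart from CAT and FECH.

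With vancomycin the RNA of NFE2L2 and of KEAP1 changed by less than the median of the 29 genes tested, and KEAP1 and MAFG rose with cisplatin. NFE2L2 (chr2:177227595-177392697, minus strand), which encodes NRF2, was at 119.7, 96.8 and 94.8 CPM in the control samples, 116, 113 and 144 CPM with iohexol, 98.9, 85.8 and 99.2 CPM with cisplatin and 126, 148 and 123 CPM with vancomycin. The vancomycin samples lay just above the highest control sample, the cisplatin samples overlapped the controls, and 1 iohexol sample reached the vancomycin range. NFE2L2 rose with vancomycin (log2 fold change 0.31 ± 0.10, adjusted p = 0.0117), a call lost without control replicate 2, control replicate 3 or vancomycin replicate 2 (adjusted p = 0.0729 to 0.0813) and with library size only as scaling (adjusted p = 0.0502). Its log2 fold change was 0.27 ± 0.12 (SE; adjusted p = 0.13) with iohexol, where it passed without control replicate 1 (adjusted p = 0.047), and -0.13 ± 0.09 (SE; adjusted p = 0.207) with cisplatin.

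KEAP1 (chr19:10486120-10503741, minus strand), the adaptor that holds NRF2 for degradation, was at 76.3, 95.6 and 92.2 CPM in the control samples, 104, 94.9 and 87.2 CPM with iohexol, 143, 146 and 139 CPM with cisplatin and 96.5, 114 and 116 CPM with vancomycin. The cisplatin samples were the highest and overlapped no other group. KEAP1 rose with cisplatin (log2 fold change 0.70 ± 0.08, adjusted p = 4.49e-07) and less with vancomycin (log2 fold change 0.26 ± 0.10, adjusted p = 0.0272), the latter a call lost without control replicate 1, vancomycin replicate 2 or vancomycin replicate 3 (adjusted p = 0.0803 to 0.133) and with library size only (adjusted p = 0.116). MAFG (chr17:81918270-81927714, minus strand), a small MAF protein that binds DNA together with NRF2, was at 61.2, 68.4 and 73.9 CPM in the control samples, 75.6, 78.7 and 66.3 CPM with iohexol, 116, 118 and 120.0 CPM with cisplatin and 137, 143 and 147 CPM with vancomycin. Cisplatin samples lay above the controls and vancomycin samples above both, while iohexol samples overlapped the controls. MAFG rose with cisplatin (log2 fold change 0.80 ± 0.07, adjusted p = 4.63e-08) and was a DEG with vancomycin (log2 fold change 1.03 ± 0.09, adjusted p = 1.3e-09). Its log2 fold change with iohexol was 0.14 ± 0.11 (SE; adjusted p = 0.408).

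Partners, relatives and competitors of NRF2 and proteins tied to its degradation, as a list of 12, included rises and falls with each drug. All 12 were tested with each drug. With iohexol 3 rose and 2 fell, with cisplatin 3 rose and 8 fell, and with vancomycin 5 rose and 4 fell, and the median log2 fold changes were 0.087, -0.36 and 0.16, where those of all genes were 0.012, 0.0074 and -0.0084. Over all genes 11.2% rose and 9.77% fell with iohexol, 29.2% and 30.6% with cisplatin and 29.0% and 28.8% with vancomycin. SQSTM1, the autophagy receptor that can bind KEAP1, was at 203, 248 and 247 CPM in the control samples, 333, 338 and 280.3 CPM with iohexol, 183, 187 and 182 CPM with cisplatin and 1024, 1067 and 1041 CPM with vancomycin. The vancomycin samples stood far above all others (log2 fold change 2.12 ± 0.09, adjusted p = 3.34e-15), and SQSTM1 also rose with iohexol (log2 fold change 0.47 ± 0.11, adjusted p = 0.00903) and fell with cisplatin (log2 fold change -0.34 ± 0.07, adjusted p = 0.00048). The small MAF genes MAFF and MAFK rose with cisplatin and with vancomycin, as MAFG did. MAFF had a log2 fold change of 2.13 ± 0.07 (SE) with cisplatin and 2.09 ± 0.10 with vancomycin, and MAFK one of 1.07 ± 0.11 and 1.09 ± 0.12. CUL3, the scaffold of the KEAP1 ligase, fell with both (log2 fold change -0.39 ± 0.08, adjusted p = 0.000611 and log2 fold change -0.56 ± 0.10, adjusted p = 3.18e-05). BACH1, which competes for the same elements, rose with iohexol (log2 fold change 0.40 ± 0.12, adjusted p = 0.0293) and cisplatin (log2 fold change 0.41 ± 0.08, adjusted p = 0.000245) and had a log2 fold change of 0.12 ± 0.10 (SE; adjusted p = 0.312) with vancomycin.

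**Figure D3:**
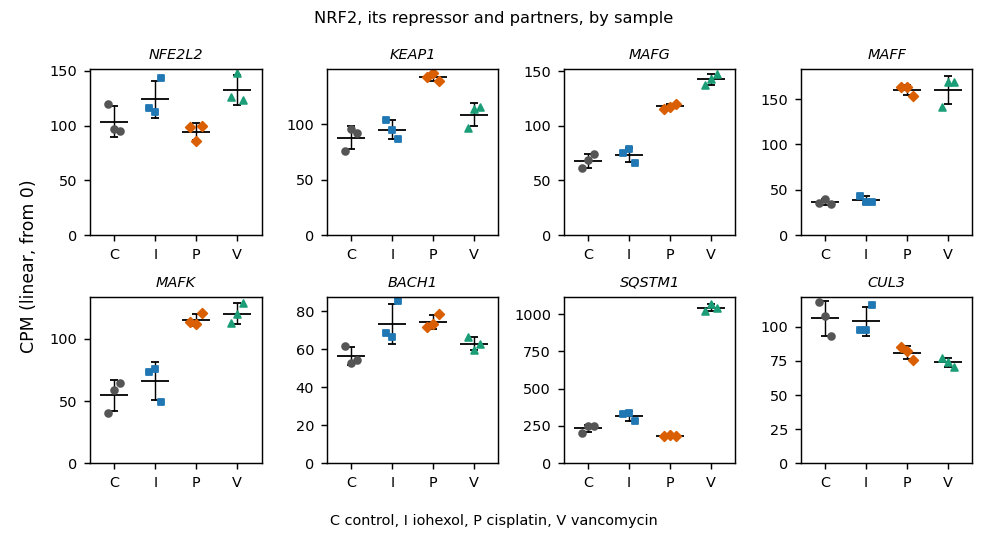
CPM (y axes, linear from 0, 1 scale per gene) in each of the 3 samples of the control (C), iohexol (I), cisplatin (P) and vancomycin (V) groups for NRF2, KEAP1, small MAF proteins, BACH1, SQSTM1 and CUL3, with the mean and SD in black. MAFG, MAFF and MAFK stand above the controls with cisplatin and vancomycin, KEAP1 is highest with cisplatin, and SQSTM1 stands highest with vancomycin.

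Of the 4 genes of glutathione synthesis and use, the 3 that were tested rose with vancomycin. GCLC and GCLM encode the catalytic and the modifier subunit of glutamate-cysteine ligase, the first step of glutathione synthesis, and GSR the reductase that renews it with NADPH. With vancomycin all 3 rose, GCLM most (log2 fold change 0.93 ± 0.10, adjusted p = 3.14e-08), then GCLC (log2 fold change 0.81 ± 0.10, adjusted p = 4.14e-07) and GSR (log2 fold change 0.66 ± 0.09, adjusted p = 7.1e-07), and none was a DEG. GCLM was at 85.2 ± 12.4 CPM in the control group and 167 ± 9.72 CPM with vancomycin. GSR had log2 fold changes of 0.22 ± 0.09 (SE; adjusted p = 0.0907) with iohexol, whose samples all lay above the controls, and -0.11 ± 0.07 (SE; adjusted p = 0.159) with cisplatin. GCLC rose with cisplatin as well (log2 fold change 0.41 ± 0.09, adjusted p = 0.000553). Its call with iohexol (log2 fold change 0.32 ± 0.11, adjusted p = 0.0486) was lost when any 1 of the 6 samples was left out (adjusted p = 0.0558 to 0.264) and by DESeq2 (adjusted p = 0.0599). GCLM had log2 fold changes of -0.15 ± 0.13 (SE; adjusted p = 0.48) with iohexol and 0.17 ± 0.09 (SE; adjusted p = 0.105) with cisplatin, and each passed in 1 left-out fit, without iohexol replicate 3 (adjusted p = 0.0476) and without control replicate 1 (adjusted p = 5.99e-05). GPX2, a glutathione peroxidase of epithelia, had 9 counts over the 3 control samples and 10, 15 and 14 over the iohexol, cisplatin and vancomycin samples, too few to be tested. The ratio of its vancomycin to its control level was 1.49, with a 95% counting interval of 0.599 to 3.89.

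Of the thioredoxin system, TXNRD1 and SRXN1 were DEGs with vancomycin, and thioredoxin and its reductase fell with iohexol. TXNRD1 (chr12:104215779-104350305, plus strand), the cytosolic reductase that recharges thioredoxin with NADPH, was at 648, 627 and 603 CPM in the control samples, 388, 389 and 419.8 CPM with iohexol, 559, 568 and 548 CPM with cisplatin and 1413, 1446 and 1377 CPM with vancomycin. No group overlapped another, with iohexol lowest, cisplatin between iohexol and control, and vancomycin highest. TXNRD1 rose with vancomycin (log2 fold change 1.13 ± 0.08, adjusted p = 2.94e-11) and fell with iohexol (log2 fold change -0.63 ± 0.08, adjusted p = 0.000154). It fell slightly with cisplatin (log2 fold change -0.17 ± 0.05, adjusted p = 0.0124), but there the log2 fold change was 0.05 with library size only, and without cisplatin replicate 3 the adjusted p was 0.0695. TXN, thioredoxin itself, averaged 319 ± 39.4 CPM in the controls, beside 223 ± 22.6, 311 ± 8.70 and 556 ± 63.4 CPM with iohexol, cisplatin and vancomycin. TXN fell with iohexol (log2 fold change -0.50 ± 0.11, adjusted p = 0.00668) and rose with vancomycin (log2 fold change 0.76 ± 0.10, adjusted p = 5.84e-07), and 13.0% of its 31-base sequences also occur in other genes, TXN pseudogenes among them.

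SRXN1 (chr20:646615-653370, minus strand), sulfiredoxin, which repairs overoxidized peroxiredoxins, was at 0.653, 2.01 and 2.57 CPM in the control samples, 1.38, 1.15 and 0.534 CPM with iohexol, 2.97, 2.65 and 2.30 CPM with cisplatin and 15.6, 14.2 and 18.1 CPM with vancomycin. The vancomycin samples were several times above every other sample, while the other groups were near the limit of testing and iohexol overlapped the controls. SRXN1 rose with vancomycin (log2 fold change 3.13 ± 0.25, adjusted p = 1.35e-10). Its log2 fold changes were -0.76 ± 0.48 (SE; adjusted p = 0.294) with iohexol and 0.58 ± 0.34 (SE; adjusted p = 0.154) with cisplatin, the latter passing without control replicate 3 (adjusted p = 0.0376). The readthrough gene model AL121758.1 covers 85.0% of the SRXN1 exons on the same strand, so the reads counted may come from the remaining part, and the level is uncertain. PRDX1, the peroxiredoxin with the most RNA per length here, fell with cisplatin (log2 fold change -0.29 ± 0.06, adjusted p = 0.000278), a call lost with library size only (adjusted p = 0.257). It rose little with vancomycin (log2 fold change 0.21 ± 0.09, adjusted p = 0.035), and that call was lost without control replicate 2, control replicate 3 or vancomycin replicate 2 (adjusted p = 0.0916 to 0.186). Exons of MMACHC on the opposite strand cover 24.9% of PRDX1, and the strand setting of the counting is not given in the sources used here.

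Of the 4 enzymes that supply NADPH, all 4 rose with vancomycin, and TKT, TALDO1 and ME1 fell with cisplatin while PGD did not pass. TKT (chr3:53224707-53256052, minus strand), transketolase of the pentose phosphate pathway, was at 495, 566 and 561 CPM in the control samples, 499, 475 and 386 CPM with iohexol, 273, 282 and 287 CPM with cisplatin and 1605, 1615 and 1702 CPM with vancomycin. The vancomycin samples exceeded every other sample, and the cisplatin samples lay below every other sample. TKT was a DEG with vancomycin (log2 fold change 1.56 ± 0.09, adjusted p = 1.92e-13), and it fell with cisplatin to 0.519 of the control level (log2 fold change -0.95 ± 0.06, adjusted p = 4.07e-10). TALDO1 (chr11:747329-765024, plus strand), transaldolase of the same pathway, was at 120.4, 120.3 and 116 CPM in the control samples, 122, 113 and 106 CPM with iohexol, 84.5, 75.0 and 76.0 CPM with cisplatin and 229, 275 and 257 CPM with vancomycin. Again vancomycin was highest and cisplatin lowest, without overlap (log2 fold change 1.05 ± 0.09, adjusted p = 4.72e-10 and log2 fold change -0.60 ± 0.07, adjusted p = 7.52e-07). The iohexol samples overlapped the controls for TKT (log2 fold change -0.23 ± 0.11, adjusted p = 0.14) and for TALDO1 (log2 fold change -0.04 ± 0.09, adjusted p = 0.766).

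ME1, malic enzyme, averaged 63.8 ± 8.45 CPM in the controls, beside 103 ± 16.2, 37.9 ± 2.97 and 128 ± 9.09 CPM with iohexol, cisplatin and vancomycin. It rose with iohexol (log2 fold change 0.70 ± 0.13, adjusted p = 0.00251) and vancomycin (log2 fold change 0.96 ± 0.10, adjusted p = 1.96e-08) and fell with cisplatin (log2 fold change -0.75 ± 0.10, adjusted p = 3.14e-06). PGD, 6-phosphogluconate dehydrogenase, rose with vancomycin (log2 fold change 0.84 ± 0.09, adjusted p = 1.34e-08), and its log2 fold changes were -0.09 ± 0.10 (SE; adjusted p = 0.571) with iohexol and 0.01 ± 0.06 (SE; adjusted p = 0.906) with cisplatin. The pseudogene PGDP1 shares 13.8% of the PGD sequences. Outside the 31 genes, IDH1, which also makes NADPH, had the same signs as ME1. IDH1 had log2 fold changes of 0.77 ± 0.12 (SE) with iohexol, -1.25 ± 0.09 with cisplatin and 0.56 ± 0.11 with vancomycin.

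**Figure D4:**
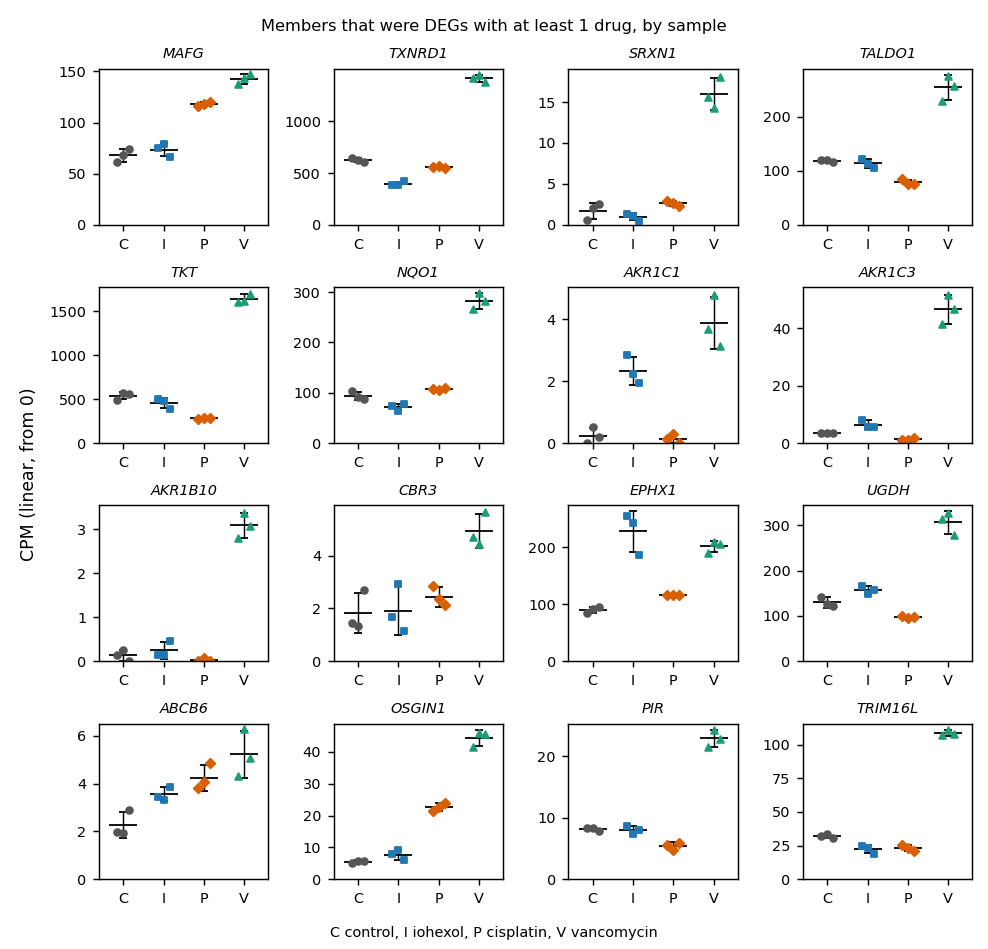
CPM (y axes, linear from 0, 1 scale per gene) in each of the 3 samples of the control (C), iohexol (I), cisplatin (P) and vancomycin (V) groups for the 16 genes that were DEGs with at least 1 drug, with the mean and SD in black. The vancomycin samples lie above all other samples for 14 genes, with EPHX1, where they overlap iohexol, and ABCB6, where they overlap cisplatin, as the exceptions. All 16 were DEGs up with vancomycin, so a high place of its samples was largely set by this choice of genes.

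Among the enzymes that reduce quinones and carbonyls, NQO1, CBR3, AKR1C1, AKR1C3 and AKR1B10 were DEGs with vancomycin, the AKR1C1 and AKR1B10 values resting on few control counts. NQO1 (chr16:69706996-69726951, minus strand), which reduces quinones to hydroquinones, was at 103, 91.4 and 87.1 CPM in the control samples, 73.8, 64.4 and 77.3 CPM with iohexol, 107, 105 and 109.5 CPM with cisplatin and 267, 297 and 283 CPM with vancomycin. Vancomycin samples were far above all others, iohexol samples lay below the controls, and cisplatin samples lay slightly above them. NQO1 rose with vancomycin (log2 fold change 1.55 ± 0.09, adjusted p = 8.1e-13). It fell with iohexol (log2 fold change -0.37 ± 0.10, adjusted p = 0.0256), a call lost without control replicate 1, control replicate 2, iohexol replicate 1 or iohexol replicate 2 (adjusted p = 0.0568 to 0.118), and with library size only (adjusted p = 0.0584). The small rise with cisplatin (log2 fold change 0.19 ± 0.07, adjusted p = 0.0264) was lost without control replicate 2, control replicate 3 or any of the 3 cisplatin samples (adjusted p = 0.0585 to 0.139).

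The aldo-keto reductases AKR1C1, AKR1C2 and AKR1C3, which reduce ketones of steroids and prostaglandins and reactive aldehydes, lie side by side on chromosome 10. AKR1C3 (chr10:5035354-5107686, plus strand) was at 3.41, 3.51 and 3.62 CPM in the control samples, 8.08, 5.69 and 5.61 CPM with iohexol, 1.15, 0.923 and 1.89 CPM with cisplatin and 41.6, 51.8 and 46.6 CPM with vancomycin. The order was cisplatin, control, iohexol and vancomycin, with no overlap between groups. AKR1C3 rose with vancomycin (log2 fold change 3.68 ± 0.14, adjusted p = 3.66e-16) and with iohexol (log2 fold change 0.89 ± 0.20, adjusted p = 0.00908), and it was the only DEG of the 31 that fell with cisplatin (log2 fold change -1.40 ± 0.28, adjusted p = 0.000336). AKR1C1 (chr10:4963253-4983283, plus strand) had 0, 8 and 3 counts in the control samples, 41, 35 and 29 with iohexol, 2, 5 and 0 with cisplatin and 59, 71 and 51 with vancomycin. These were 0, 0.502 and 0.197 CPM in the control samples, 2.83, 2.24 and 1.94 CPM with iohexol, 0.121, 0.308 and 0 CPM with cisplatin and 3.69, 4.79 and 3.14 CPM with vancomycin. Iohexol and vancomycin samples lay above all control and cisplatin samples. AKR1C1 rose with iohexol (log2 fold change 3.24 ± 0.55, adjusted p = 0.00154) and vancomycin (log2 fold change 3.90 ± 0.47, adjusted p = 1.96e-07). The ratio of summed counts to the control group, scaled for total count and TMM factor, was 9.51 with iohexol (95% counting interval 5.10 to 19.6) and 15.7 with vancomycin (8.58 to 32.0). With cisplatin the ratio was 0.575 (0.189 to 1.63), and the gene was not tested.

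AKR1C2 had 0 counts in all control samples, 3 over the iohexol samples, 1 over the cisplatin samples and 14 over the vancomycin samples (0, 5 and 9), and it was not tested. AKR1C1 shares 39.3% of its 31-base sequences with other genes, AKR1C2 49.5% and AKR1C3 13.4%, neighbours of this cluster among them, so that reads may have been left out or assigned to a neighbour. AKR1B10 (chr7:134527592-134541408, plus strand), an aldo-keto reductase of retinal and lipid aldehydes, had 2, 4 and 0 counts in the control samples, 2, 2 and 7 with iohexol, 0, 1 and 0 with cisplatin and 45, 50 and 50 with vancomycin. This was 0.145, 0.251 and 0 CPM in the control samples, 0.138, 0.128 and 0.468 CPM with iohexol, 0, 0.0616 and 0 CPM with cisplatin and 2.82, 3.38 and 3.08 CPM with vancomycin. The vancomycin samples stood apart from all others, which were near the floor. AKR1B10 rose with vancomycin (log2 fold change 4.41 ± 0.51, adjusted p = 8.63e-08), with a ratio of 23.1 (95% counting interval 10.4 to 63.9), and it shares 28.6% of its sequences with other genes such as AKR1B15.

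CBR3 (chr21:36134912-36146566, plus strand), a carbonyl reductase, was at 1.45, 1.32 and 2.70 CPM in the control samples, 1.66, 2.94 and 1.14 CPM with iohexol, 2.85, 2.34 and 2.13 CPM with cisplatin and 4.69, 4.46 and 5.67 CPM with vancomycin. Only the vancomycin samples lay clear of the controls. CBR3 rose with vancomycin (log2 fold change 1.39 ± 0.28, adjusted p = 0.000139), and its log2 fold changes were 0.09 ± 0.40 (SE; adjusted p = 0.897) with iohexol and 0.42 ± 0.30 (SE; adjusted p = 0.246) with cisplatin, the latter passing without control replicate 3 (adjusted p = 0.0385). The antisense gene CBR3-AS1 lies over 42.2% of its exons on the other strand, so the reads of the pair may not be separated. Its neighbour CBR1, which reduces quinones and prostaglandins, was at 37.7 ± 1.35 CPM in the control group and rose modestly with vancomycin (log2 fold change 0.40 ± 0.10, adjusted p = 0.00173). CBR1 had log2 fold changes of 0.12 ± 0.10 (SE; adjusted p = 0.453) with iohexol and -0.09 ± 0.08 (SE; adjusted p = 0.343) with cisplatin.

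EPHX1 and UGDH, enzymes of detoxification, rose with iohexol and vancomycin. EPHX1 (chr1:225810092-225845563, plus strand), the microsomal epoxide hydrolase, was at 84.7, 92.0 and 94.6 CPM in the control samples, 254, 243 and 186 CPM with iohexol, 116, 115 and 116 CPM with cisplatin and 190.5, 209 and 205 CPM with vancomycin. All 3 drug groups lay above the controls, and iohexol and vancomycin overlapped each other. EPHX1 and GCLC were the genes of the 31 that rose with every drug, but GCLC lost its iohexol call in every fit without 1 sample. EPHX1 was a DEG with iohexol (log2 fold change 1.35 ± 0.12, adjusted p = 1.1e-05) and vancomycin (log2 fold change 1.11 ± 0.09, adjusted p = 1.38e-10) and rose less with cisplatin (log2 fold change 0.35 ± 0.06, adjusted p = 0.000141). UGDH (chr4:39498755-39528311, minus strand), which makes the UDP-glucuronic acid used in conjugation, was at 142, 126 and 121 CPM in the control samples, 166, 148 and 158 CPM with iohexol, 98.9, 94.5 and 98.2 CPM with cisplatin and 314, 328 and 278 CPM with vancomycin. The order was cisplatin, control, iohexol and vancomycin, without overlap. UGDH was a DEG with vancomycin (log2 fold change 1.20 ± 0.09, adjusted p = 1.23e-10) and fell with cisplatin (log2 fold change -0.42 ± 0.07, adjusted p = 8.06e-05). Its rise with iohexol (log2 fold change 0.30 ± 0.09, adjusted p = 0.0429) was lost without control replicate 2, control replicate 3, iohexol replicate 1 or iohexol replicate 2 (adjusted p = 0.0747 to 0.215).

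Catalase and ferrochelatase were the tested genes that did not rise with vancomycin. CAT, which splits hydrogen peroxide, was at 23.7 ± 2.68 CPM in the control group and 23.1 ± 2.05 CPM with vancomycin (log2 fold change -0.07 ± 0.12, adjusted p = 0.622). It fell with cisplatin (log2 fold change -0.28 ± 0.11, adjusted p = 0.0445), although the groups overlapped, and the call was lost by DESeq2 (adjusted p = 0.0593) and without control replicate 1, control replicate 2, cisplatin replicate 2 or cisplatin replicate 3 (adjusted p = 0.0693 to 0.212). SOD1, the cytosolic superoxide dismutase, rose with cisplatin (log2 fold change 0.39 ± 0.07, adjusted p = 8.29e-05) and vancomycin (log2 fold change 0.65 ± 0.10, adjusted p = 3.9e-06) and had a log2 fold change of -0.10 ± 0.10 (SE; adjusted p = 0.522) with iohexol. FECH, which inserts iron into protoporphyrin, was at 28.0 ± 1.14 CPM in the control group and had log2 fold changes of -0.27 ± 0.11 (SE), -0.10 ± 0.10 and -0.06 ± 0.11 with iohexol, cisplatin and vancomycin, none past the threshold in these fits.

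ABCB6 (chr2:219209766-219219017, minus strand), a porphyrin transporter, was at 1.96, 1.95 and 2.89 CPM in the control samples, 3.45, 3.33 and 3.87 CPM with iohexol, 3.82, 4.06 and 4.84 CPM with cisplatin and 4.32, 6.28 and 5.05 CPM with vancomycin. Every drug sample lay above every control sample, and cisplatin and vancomycin overlapped. ABCB6 rose with cisplatin (log2 fold change 0.90 ± 0.23, adjusted p = 0.00294) and was a DEG with vancomycin (log2 fold change 1.15 ± 0.25, adjusted p = 0.000373), and its log2 fold change with iohexol was 0.66 ± 0.24 (SE; adjusted p = 0.0735). Exons of the gene model AC068946.2 cover 54.7% of the ABCB6 exons on the same strand, and 67.5% of the ABCB6 sequences also occur in other genes, so this level is uncertain.

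The remaining targets, OSGIN1, PIR and TRIM16L, were all DEGs with vancomycin. OSGIN1 (chr16:83948282-83966332, plus strand), a growth inhibitor induced by oxidative stress, was at 4.93, 5.65 and 5.85 CPM in the control samples, 7.88, 9.02 and 5.88 CPM with iohexol, 21.3, 22.8 and 23.8 CPM with cisplatin and 41.5, 46.0 and 45.6 CPM with vancomycin. The order was control, iohexol, cisplatin and vancomycin, with no overlap between groups. OSGIN1 was a DEG with cisplatin (log2 fold change 2.04 ± 0.12, adjusted p = 2.15e-10) and with vancomycin (log2 fold change 2.97 ± 0.13, adjusted p = 3.98e-15). With iohexol its log2 fold change was 0.49 ± 0.19 (SE; adjusted p = 0.0945), which passed without iohexol replicate 3 (adjusted p = 0.0119) and in the fit of all 4 groups (adjusted p = 0.0299). PIR (chrX:15384799-15493564, minus strand), the nuclear iron-binding protein pirin, was at 8.35, 8.28 and 7.89 CPM in the control samples, 8.64, 7.42 and 8.02 CPM with iohexol, 5.51, 4.68 and 5.91 CPM with cisplatin and 21.5, 24.3 and 22.9 CPM with vancomycin. Vancomycin was highest and cisplatin lowest, without overlap with the controls, and iohexol overlapped them. PIR rose with vancomycin (log2 fold change 1.44 ± 0.13, adjusted p = 1.85e-09), fell with cisplatin (log2 fold change -0.61 ± 0.15, adjusted p = 0.00244) and had a log2 fold change of -0.01 ± 0.15 (SE; adjusted p = 0.972) with iohexol.

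TRIM16L (chr17:18697998-18736118, plus strand), a truncated relative of the ubiquitin ligase TRIM16, was at 32.4, 33.3 and 30.3 CPM in the control samples, 24.9, 23.4 and 19.0 CPM with iohexol, 25.4, 23.0 and 21.0 CPM with cisplatin and 107, 111 and 108 CPM with vancomycin. Iohexol and cisplatin samples both lay below the controls, and vancomycin samples were over 3 times the controls. TRIM16L rose with vancomycin (log2 fold change 1.72 ± 0.10, adjusted p = 2.55e-13) and fell with cisplatin (log2 fold change -0.47 ± 0.10, adjusted p = 0.000527) and iohexol (log2 fold change -0.49 ± 0.13, adjusted p = 0.0176), the last call being lost without control replicate 2 (adjusted p = 0.0679). It shares 66.4% of its sequences with other genes, TRIM16 among them, which had a log2 fold change of 1.54 ± 0.12 (SE) with vancomycin, so the reads of the pair may not be separated.

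Direct tests between drugs, in a fit of all 12 samples, asked whether the responses of these genes differed. All 3 contrasts tested 29 of the 31 genes. Between vancomycin and iohexol 23 were higher with vancomycin, beside 29.0% of all 17073 genes. None was lower by edgeR, 0 were lower at an unadjusted p under 0.05, and 0 by DESeq2 or limma-voom, where 27.6% of all genes were lower. SRXN1 (log2 difference 3.96 ± 0.31, adjusted p = 1.13e-09), AKR1B10 (log2 difference 3.62 ± 0.52, adjusted p = 5.92e-06) and AKR1C3 (log2 difference 2.85 ± 0.16, adjusted p = 1.07e-11) differed most. AKR1B10 had 2, 2 and 7 counts with iohexol. It passed the filter through its vancomycin samples alone, so its test was not independent of its high vancomycin counts. EPHX1 had a log2 difference of -0.18 ± 0.09 (SE; adjusted p = 0.118), and it was lower with vancomycin without iohexol replicate 3 (log2 difference -0.30, adjusted p = 0.00105). The differences of AKR1C1 (log2 difference 0.73 ± 0.38, adjusted p = 0.107) and NFE2L2 (log2 difference 0.10 ± 0.11, adjusted p = 0.476) did not pass either.

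Between vancomycin and cisplatin 25 of the 29 were higher with vancomycin and KEAP1 was lower (log2 difference -0.39 ± 0.10, adjusted p = 0.00127), beside 34.7% and 30.0% of all genes. AKR1C3 (log2 difference 5.13 ± 0.20, adjusted p = 2.65e-14), AKR1C1 (log2 difference 4.70 ± 0.57, adjusted p = 4.34e-07, against 7 counts with cisplatin), SRXN1 (log2 difference 2.60 ± 0.26, adjusted p = 3.55e-08) and TKT (log2 difference 2.55 ± 0.09, adjusted p = 9.53e-15) were among the most different. AKR1B10 had 145 counts over the vancomycin samples and 1 over the cisplatin samples, a ratio of 153 with a 95% counting interval of 27.1 to 6093. In this fit AKR1C1 passed the filter through its iohexol and vancomycin samples, and AKR1B10 through its vancomycin samples alone. Their tests were therefore not independent of their counts in those groups. The higher levels of MAFG (log2 difference 0.27 ± 0.08, adjusted p = 0.0077) and SOD1 (log2 difference 0.30 ± 0.09, adjusted p = 0.00648) turned to differences of -0.06 and -0.03, neither past the threshold, with library size only, a scaling that moved the median of all genes from 0.033 to -0.30 in this contrast, so that both stayed above that median. Between cisplatin and iohexol 9 of the 29 were higher with cisplatin and 13 lower, beside 26.0% and 27.9% of all genes. OSGIN1 (log2 difference 1.57 ± 0.13, adjusted p = 6.24e-09) and SRXN1 (log2 difference 1.36 ± 0.35, adjusted p = 0.0029) were higher by the most, and AKR1C1 (log2 difference -3.97 ± 0.60, adjusted p = 1.22e-05), AKR1C3 (log2 difference -2.27 ± 0.22, adjusted p = 4.77e-08) and ME1 (log2 difference -1.44 ± 0.12, adjusted p = 2.36e-09) were lower. AKR1B10 was lower as well (log2 difference -3.16), with 1 count over the cisplatin and 11 over the iohexol samples (ratio 0.0825, 95% counting interval 0.00192 to 0.568), a call lost without iohexol replicate 3, cisplatin replicate 1 or cisplatin replicate 3 (adjusted p = 0.0727 to 0.142).

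A list of 26 other reported NRF2 targets, of which 22 were tested, was tested in the same fits. With vancomycin 17 rose and 2 fell, beside 29.0% and 28.8% of all genes, with a median log2 fold change of 0.93, where that of all genes was -0.0084. Heme and iron genes were among them. BLVRB, biliverdin reductase B, rose (log2 fold change 3.10 ± 0.14, adjusted p = 5.39e-15), as did FTL, the ferritin light chain (log2 fold change 1.88 ± 0.08, adjusted p = 4.68e-15), and HMOX1, heme oxygenase (log2 fold change 3.47). The heme transporter SLC48A1 (log2 fold change -1.67 ± 0.14, adjusted p = 2.5e-10) and the efflux pump ABCC4 (log2 fold change -1.08 ± 0.10, adjusted p = 4.64e-09) fell. With cisplatin 7 rose and 12 fell (median -0.31), beside 29.2% and 30.6% of all genes, SLC7A11, the cystine importer that feeds glutathione synthesis, among those that fell (log2 fold change -1.54 ± 0.12, adjusted p = 7.26e-09). With iohexol 10 rose and 0 fell by edgeR (median 0.09), beside 11.2% and 9.77% of all genes, AKR1B1, aldose reductase, by the most (log2 fold change 2.36 ± 0.08, adjusted p = 6.99e-09), then FTH1, the ferritin heavy chain (log2 fold change 1.00 ± 0.08, adjusted p = 4.81e-06). At an unadjusted p under 0.05, 6 of them were lower with iohexol, 2 were by DESeq2 (GSTP1 and ABCC1) and 0 by limma-voom. ALDH3A1 and CES1 had 0 counts in all 12 samples.

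NQO1 is also a target of the aryl hydrocarbon receptor, and 4 other targets of this receptor were read beside it. Of CYP1A1, CYP1B1, TIPARP and AHRR, 1 rose and 1 fell with iohexol, beside 11.2% and 9.77% of all genes, 2 rose and 1 fell with cisplatin, beside 29.2% and 30.6%, and 3 rose and 0 fell by edgeR with vancomycin, beside 29.0% and 28.8%. The median log2 fold change over the 4 was -0.25 with iohexol, 0.12 with cisplatin and 0.65 with vancomycin, where those of all genes were 0.012, 0.0074 and -0.0084. CYP1B1, TIPARP and AHRR were the 3 that rose with vancomycin, and CYP1A1 did not. CYP1A1 was at 0.653, 0.690 and 1.05 CPM in the control samples, 1.66, 2.17 and 1.74 CPM with iohexol, 1.33 to 2.01 CPM with cisplatin and 0.939, 0.810 and 0.739 CPM with vancomycin. Iohexol and cisplatin samples lay above all control samples, at low counts, and vancomycin samples overlapped the controls. CYP1A1 was a DEG with iohexol (log2 fold change 1.23 ± 0.34, adjusted p = 0.0231) and with cisplatin (log2 fold change 1.03 ± 0.35, adjusted p = 0.0175), and its log2 fold change with vancomycin was 0.01 ± 0.43 (SE; adjusted p = 0.986).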

How the data were processed

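Poly(A)-selected RNA of 12 HK-2 samples was made into libraries with an NEBNext kit. The authors deposited raw counts, whole numbers of reads for every gene that were not normalized. The submitters' processing notes name CASAVA 1.8, fastp, HISAT2 2.0.5, featureCounts 1.5.0-p3 and DESeq2 1.20.0. The genome build, the annotation and the strand setting are not given in the sources used here. All 58735 genes were found in GENCODE 29, 58724 of them with the same start, end and strand, so positions are on GRCh38.

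Samples were grouped by title. The 31 genes and the gene lists were chosen with earlier results of these data known. All genes are named by role, and values in every sample are given for the regulators and for genes that were DEGs with any drug. From the deposited counts, each drug was tested against the control group in a separate fit with edgeR 4.0.16 in R 4.3.3 (TMM, filterByExpr with a minimum of 10 and a total of 15 counts, glmQLFTest), with Benjamini-Hochberg adjustment over all genes tested. Contrasts between drugs came from 1 fit over the 12 samples. The SE of a log2 fold change was derived from the F statistic as the change over the root of F. CPM used the TMM factors of all 12 samples (control 0.961 to 0.976, iohexol 1.02 to 1.04, cisplatin 1.12 to 1.13, vancomycin 0.885 to 0.897). Counting intervals are exact binomial ones, and reads without molecular identifiers are not independent molecules. Shared sequence is how many of a gene's 31-base stretches, taken at steps of 5 bases, another gene also holds, in percent.

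Replicates of a group differed by more than sampling noise (chi-square per degree of freedom 2.34 to 17.5). In counts simulated for the vancomycin comparison (15762 genes fitted), 90 of 97 tested genes changed by 2-fold were called in the right direction, and 12 of 15566 unchanged genes were called. The simulation gave every gene the same dispersion and changed only genes with a mean of at least 10 counts. These figures therefore do not describe genes under that mean or the uneven spread of the real replicates. The alternatives were DESeq2 1.42.0, limma-voom (limma 3.58.1), RLE factors, library size only, other filters, a fit of all 4 groups, the unadjusted p, a replicate block and leaving out each sample. Leaving out genes that share at least 30% of their sequences was added after seeing the data. Figures were drawn with matplotlib 3.10.9.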

Additional observations from a re-analysis of the deposited data

How the results depend on the processing

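With vancomycin the number of the 31 genes that rose stayed between 24 and 27 over the fits without 1 sample, none fell in any alternative, and 24 of the 27 were called in every alternative. The calls of NFE2L2, KEAP1 and PRDX1 were lost in some of them. With iohexol 6 of 10 called genes kept their call throughout (GCLC, NQO1, UGDH and TRIM16L did not), and with cisplatin 14 of 18 did (TXNRD1, PRDX1, NQO1 and CAT did not). In the fit of all 4 groups ABCB6, GSR and OSGIN1 were also higher with iohexol and FECH and TKT lower (adjusted p = 0.0299 to 0.0458). With iohexol 10 genes rose at an unadjusted p under 0.05, against 6 with adjustment, and the number that fell was 2 to 5 over the fits without 1 sample, the lowest without control replicate 2. With library size only, which moved the median of all genes with cisplatin from 0.0074 to 0.23, the cisplatin median of the 31 became 0.13 from -0.09, and the log2 fold changes of TXNRD1 and TXN became 0.053 and 0.18. Relative to that shift both lay below the median of all genes. Without 1 sample the cisplatin median was -0.14 to -0.033. With library size only, 1 gene was lower with vancomycin than with iohexol (EPHX1, also called without iohexol replicate 3, so that the range without 1 sample was 0 to 1), and 2 were lower than with cisplatin (KEAP1 and FECH). That scaling moved the median of all genes from -0.016 to -0.22 and from 0.033 to -0.30 in these contrasts, and FECH, at -0.26, lay above the moved median. Leaving out the genes that share at least 30% of their sequences left 23 that rose with vancomycin, 5 that rose and 3 that fell with iohexol, and 7 and 9 with cisplatin. Depth limited GPX2 and AKR1C2, which had too few counts for a test.

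The labels number the samples of every group 1 to 3, but samples with the same number did not deviate together from their group means (mean correlation -0.021 over 18 pairs, against 0.011 over 36 other pairs), so the numbers are not taken to pair the samples. With a replicate block 4 genes rose and 3 fell with iohexol (GCLC, UGDH and NQO1 lost their calls), 9 rose and 10 fell with cisplatin (GCLM was added), and 27 rose with vancomycin. The counts between drugs were the same with the block.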
